A study of Mus musculus with 2 samples.

Results

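The regions described here are those called by Myc-tag ChIP-seq at the mouse Tcf4 locus. They are all regions whose midpoint lies in the 650 kb window chr18:69300000-69950000 of the mm9 genome, taken here as the Tcf4 gene and its flanks. That the gene lies in this window could not be checked, since an mm9 annotation was not used here. The window contains 33 of the 68211 regions in the 2 lists: 13 of 25592 in sample 1 and 20 of 42619 in sample 2. The window was chosen by the number of regions found in both samples per 100 kb, which is high there, so its counts, spacing and sharing are given as a description and carry no test.

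The tissue was corneal epithelium from mice at postnatal day 7, released with dispase before fixation. All animals carried the K14 DN-Clim transgene, a Myc-tagged dominant-negative Clim under the keratin 14 promoter, which is active in basal epithelial cells, and the immunoprecipitation used an antibody to that tag. There was 1 group of 2 replicate immunoprecipitates. Strain and the number of animals behind each sample are not given in the labels, so agreement between the samples may be technical. No input, untagged or wild-type library was analysed here, and the lists give no read numbers. The depth is therefore unknown, and no background level can be set beside a region. With 1 group of 2 samples no test between conditions is possible. The exact (Clopper-Pearson) 95% intervals given with shares reflect the number of regions counted and nothing else. The lists hold no expression values, so neither Tcf4 expression nor the identity of the cells could be checked against marker genes.

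Tcf4, also named E2-2 or ITF-2, encodes an E-protein, a class I basic helix-loop-helix transcription factor that binds E-box sequences as a homodimer or together with tissue-specific basic helix-loop-helix partners. Id proteins, which lack the basic DNA-contacting part, pair with E-proteins and keep them off DNA. The gene is distinct from Tcf7l2, the Wnt effector that is often called TCF4 as well. Clim proteins (Ldb or Nli) bind no DNA themselves and bridge LIM-homeodomain and LMO proteins. In blood cells, the Clim2 protein Ldb1 is known to take part in complexes with Lmo2 and Tal1 that also hold an E-protein. In humans, TCF4 is linked to Fuchs dystrophy, a disease of the corneal endothelium and so of another layer than the one sampled here. In the RefSeq gene order of the GRCm38 assembly, the protein-coding neighbours of Tcf4 are Mc2r, a melanocortin receptor gene, on one side and Ccdc68 on the other. For want of an mm9 annotation, the regions are placed within the window and not in exons, introns or promoters.

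Most of the regions found in both samples lay in a short part of the Tcf4 window. By an overlap of at least 1 bp, 11 regions were shared, and 9 of these 11 lay between 69500762 and 69562031, a stretch of 61.27 kb that makes up 9.43% of the window. The remaining shared regions lay 145.96 kb further on and 13.12 kb apart from each other. The stretch was delimited at this widest gap after the positions were seen, and shared regions form both of its ends. Its sharing and density are therefore raised in part by how it was chosen, and are given as a description. Inside it, all 9 sample 1 regions and 9 of the 10 sample 2 regions had a partner. In the other 588.73 kb of the window, 2 of 4 sample 1 regions and 2 of 10 sample 2 regions had one. On the rest of chromosome 18, 81.9% of 889 sample 1 regions and 51.2% of 1422 sample 2 regions had one. The density inside the stretch was 14.7 regions per 100 kb in sample 1 and 16.3 in sample 2, against 0.679 and 1.70 per 100 kb in the rest of the window. On the rest of chromosome 18 it was 10.2 regions per Mb in sample 1 and 16.3 per Mb in sample 2. Outside the stretch the window was thus below that level in sample 1 and near it in sample 2.

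**Figure D1:**
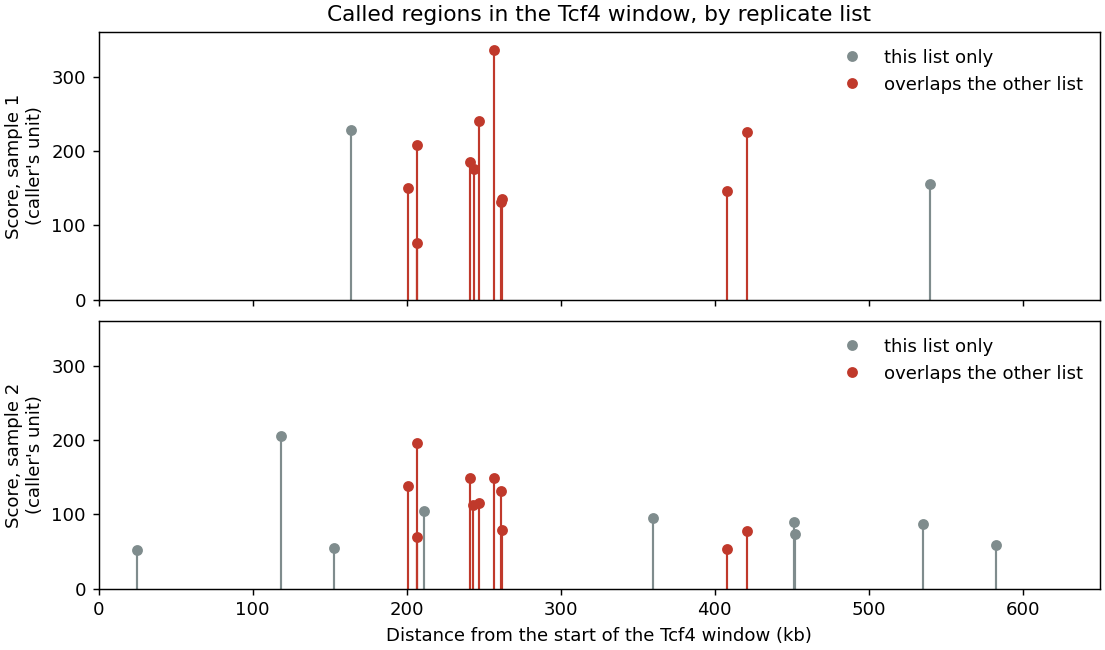
Called regions in the Tcf4 window, plotted by the distance of their midpoint from the window start (x axis, kb) and their score as deposited (y axis, in the peak caller's own unit), with sample 1 above and sample 2 below. Red points are regions that overlap the other list and grey points are regions in 1 list only. The 9 shared regions of the stretch stand between 200.8 and 262.0 kb. The stretch takes up 9.43% of the window, and 8 of the 9 sample 2 regions without a partner stand outside it.

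The 11 shared regions are described in their order along the chromosome, with the score of each list. The score is the authors' peak caller value, whose scale is not stated and may differ between the lists, so it is also given as a percentile within its own list. The first shared region, chr18:69500762-69500842, scored 150.85 in sample 1 (percentile 39.6) and 138.49 in sample 2 (percentile 87.1). It was 78 bp wide in sample 1 and 66 bp in sample 2. The second, chr18:69506395-69506553, scored 208.14 (69.8) and 196.85 (97.1), which made it the highest-scoring shared region of sample 2 in the window. The third, chr18:69506719-69506907, followed after only 165 bp. It had the lowest sample 1 score of the window, 76.28 (2.95), and a sample 2 score of 69.28 (35.8), which is below the lowest score of 70.03 in the whole sample 1 list. These close neighbours thus differed in score in the same direction in both samples. They were also the only shared regions here that were wide in both lists, with widths of 149 and 122 bp in sample 1 and 159 and 189 bp in sample 2.

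A distance of 34.5 kb separated these from the next 6 shared regions, which lay within 20.7 kb and were narrow in both lists. The fourth, chr18:69541296-69541372, scored 185.12 (59.5) and 148.77 (90.01). The fifth, chr18:69543390-69543496, scored 175.43 (55.04) and 112.26 (75.3). The sixth, chr18:69546682-69546761, scored 240.08 (79.1) and 115.10 (76.8). These 3 lay in the upper 50% of both lists, as did the second and the seventh shared region. The seventh, chr18:69556478-69556560, had the highest sample 1 score of the window, 336.71 (94.1), and 149.45 (90.3) in sample 2, and it was the only member in the top 10% of both lists. The eighth, chr18:69561042-69561113, scored 131.07 (28.6) and 132.10 (85.3), the only pair here whose sample 2 score was the higher number. The ninth, chr18:69561956-69562031, lay 0.916 kb beyond it and scored 135.76 (30.98) and 79.12 (47.1). All 5 shared regions in the upper 50% of both lists thus lay inside the stretch, which holds 9 of the 11, and within 50.2 kb of each other. They made up 45.5% of the 11 (interval 16.7 to 76.6%), against 34.3% of the 728 pairs on the rest of the chromosome, a share inside that interval.

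The shared regions outside the stretch scored lower in sample 2 than in sample 1 by rank. The tenth, chr18:69707873-69708031, scored 145.94 (36.7) and 54.06 (9.91), the lowest sample 2 score among the 11. It was 69 bp wide in sample 1 and 159 bp in sample 2, the only shared region here that was narrow in one list and wide in the other. The eleventh, chr18:69721036-69721115, scored 225.55 (75.4) and 77.86 (45.9). Both lay in the lower 50% of the sample 2 list.

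Regions in 1 list only were mostly spread over the parts of the window around the stretch, which make up 588.73 kb of the 650 kb. In sample 1, the region chr18:69464113-69464184 scored 228.37 (percentile 76.3) and the region chr18:69840024-69840093 scored 156.26 (43.6). The first of these ranked 3 by score among the 13 sample 1 regions of the window, and its nearest sample 2 region was 10.97 kb away. In sample 2, the highest-scoring region of the whole window had no partner. This region, chr18:69418216-69418288, was 73 bp wide, scored 206.26 (97.6) and lay 45.8 kb from the nearest sample 1 region. On the rest of chromosome 18, 31 sample 2 regions scored at least as high, and 30 of them were shared. The next sample 2 regions without a partner were chr18:69511473-69511527, the only such region inside the stretch, with a score of 104.28 (69.9), and chr18:69659726-69659791 with a score of 94.84 (62.4). The other 6 scored from 51.88 to 89.94. Of all 9, 3 scored below the lowest score of the sample 1 list. Of the 11 shared regions, 2 did so in sample 2. On the rest of chromosome 18, 337 of 694 sample 2 regions without a partner and 178 of 728 shared ones did so. Without depth, absence from the other sample and a call that was missed there cannot be told apart.

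Neighbouring shared regions at Tcf4 were closer to each other than on most of chromosome 18, a property for which the window was chosen. Of the 10 spacings between midpoints, 5 were at most 5 kb (50.0%, interval 18.7 to 81.3%), against 40 of 726 (5.51%, 3.96 to 7.43%) on the rest of the chromosome. The smallest was 339 bp, the median 5.12 kb and the largest 145.96 kb, while the median on the rest of the chromosome was 62.0 kb. The medians for all regions of a list were 7.73 kb in sample 1 and 13.1 kb in sample 2, against 50.96 and 33.9 kb elsewhere on the chromosome. When each list was limited to its upper 50% by score, the window medians were 22.3 kb over 6 spacings in sample 1 and 9.79 kb over 11 in sample 2. The shared regions were also set apart from those beyond the window. The nearest shared region lay 402.6 kb before the first and 365.2 kb after the last, and 52 of the 726 spacings elsewhere (7.16%) were at least as long as the shorter of these distances.

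Runs of 9 consecutive shared regions give a measure of this closeness. On chromosome 18, 1 of 731 runs was as short as 61.27 kb, the one at Tcf4. The shortest run that shared no region with it, chr18:36321504-36446446, was 124.9 kb long, and the median of the 714 such runs was 765.8 kb. Over all chromosomes, 2 of 20405 runs were as short. The other was chr2:165703905-165750647, with 46.7 kb. Runs overlap each other and the length was set by the Tcf4 run, so these counts are a ranking. In the sample 1 list alone, 1 run of 9 regions on chromosome 18 was as short. In the sample 2 list alone there were 3, in 2 separate places.

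Over its full 650 kb the window was less exceptional. It held 11 shared regions, 16.9 per Mb, against 8.36 per Mb on the rest of the chromosome, a ratio of 2.02. The ratio was 1.96 for sample 1 regions and 1.88 for sample 2 regions. These ratios include the stretch, which was delimited after the positions were seen. The window covers 0.741% of the length spanned by the lists on chromosome 18 and held 1.49% of its 739 shared regions (interval 0.745 to 2.65%). When the chromosome was tiled with windows of the same length, the 132 other tiles held a median of 4 shared regions and a range of 0 to 15. At least 11 were found in 15 of them, of which 9 held more. The fullest was chr18:73850000-74500000 with 15. Tiles with 14 were chr18:36150000-36800000, chr18:38100000-38750000 and chr18:60850000-61500000. Those with 13 were chr18:35500000-36150000 and chr18:68000000-68650000, and those with 12 were chr18:66700000-67350000, chr18:67350000-68000000 and chr18:75150000-75800000. The 6 tiles that equalled the Tcf4 window began at 47200000, 54350000, 64100000, 74500000, 76450000 and 82950000. Divided into 13 bins of 50 kb, the window had shared regions in 3 bins, with 6, 3 and 2, and none in the other 10.

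**Figure D2:**
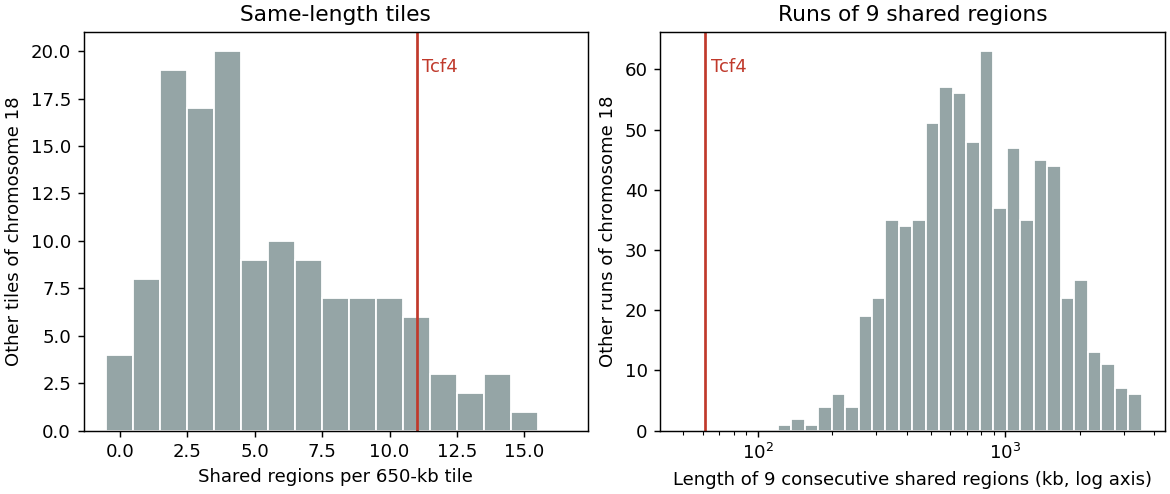
Left, the number of shared regions in each of the 132 other 650 kb tiles of chromosome 18 (x axis, regions per tile; y axis, number of tiles), with the 11 of the Tcf4 window as a red line. Right, the length of every other run of 9 consecutive shared regions on chromosome 18 (x axis, kb on a log axis; y axis, number of runs), with the 61.27 kb run at Tcf4 as a red line left of all of them. Neighbouring runs share regions and are not independent.

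The share of Tcf4 regions found in both lists is given beside that of regions elsewhere on the chromosome as a description. In sample 1, 11 of 13 were shared (84.6%, interval 54.6 to 98.1%), against 81.9% of 889 on the rest of chromosome 18. In sample 2, 11 of 20 were shared (55.0%, interval 31.5 to 76.9%), against 51.2% of 1422. Sharing was part of the choice of the window, so nothing is read from these shares.

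The Tcf4 regions were mostly narrow. Regions were split into narrow and wide at the emptiest 5 bp bin between the most frequent width and a second peak at larger widths. This put the boundary at 105 bp for sample 1 and 100 bp for sample 2. The procedure gives a boundary for any list of widths, so separate populations were assumed and not tested. Other boundaries were not tried. In sample 1, the 13 regions had a median width of 77 bp with a range of 69 to 149 bp, and 11 were narrow (84.6%, interval 54.6 to 98.1%), against 63.8% on the rest of the chromosome, where the median was 82 bp. In sample 2, the 20 regions had a median width of 72 bp with a range of 55 to 189 bp, and 13 were narrow (65.0%, 40.8 to 84.6%), against 47.4% and a median of 104 bp elsewhere. Each interval includes the share elsewhere. Of the 11 overlapping pairs, 8 were narrow in both lists (72.7%, interval 39.03 to 93.98%), against 34.6% of the 728 pairs on the rest of the chromosome (31.2 to 38.2%). These intervals do not overlap, but they treat neighbouring regions as independent and were computed after the widths had been seen. Among the 9 regions of the stretch, 7 were narrow in both lists. What a narrow region stands for in these libraries was not tested.

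**Figure D3:**
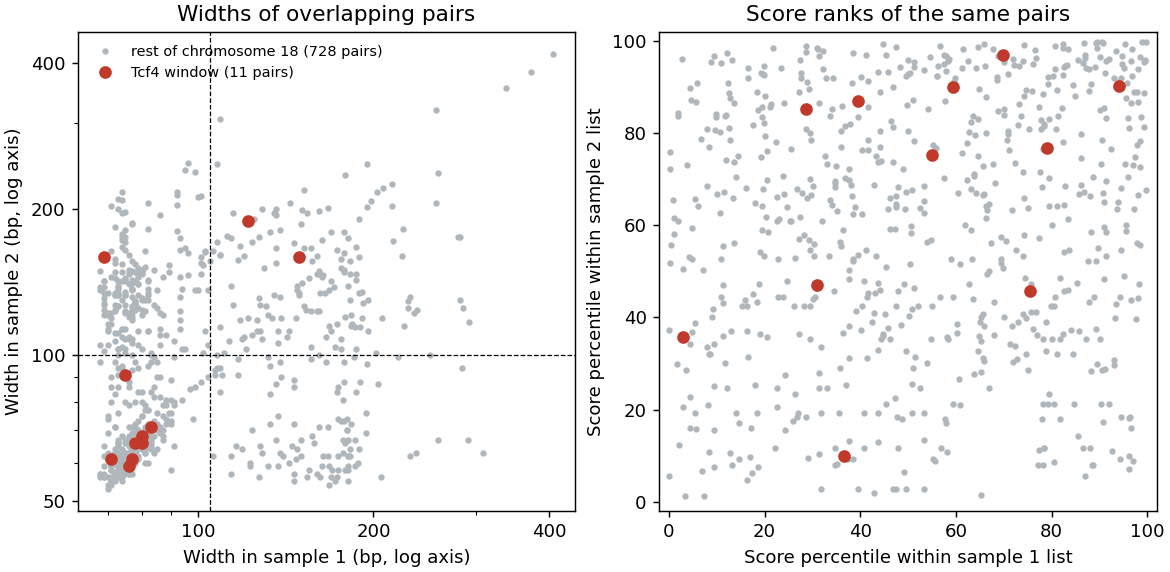
Overlapping pairs of regions on chromosome 18, 11 in the Tcf4 window (red) and 728 elsewhere (grey). Left, width in sample 1 against width in sample 2 (bp, log axes), with dashed lines at the boundaries of 105 and 100 bp, and 8 red points in the lower left field. Right, score percentile within the sample 1 list against that within the sample 2 list, where the red points spread from 2.95 to 94.1 in sample 1 and from 9.91 to 97.1 in sample 2.

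The edges of the shared regions differed between the lists by 0 to 63 bp at the start and by 1 to 29 bp at the end. The starts were at the same base in the second and the seventh shared region, and 1 base apart in the fourth and the eleventh, so 4 of 11 agreed within 1 bp (36.4%, interval 10.9 to 69.2%), against 14.3% of the 728 pairs on the rest of the chromosome. The ends agreed within 1 bp in 1 pair, the eighth (9.09%, 0.230 to 41.3%), against 16.5% elsewhere. Both intervals include the share elsewhere. With a wider tolerance of 4 bp, chosen after the offsets were seen, 5 starts and 4 ends agreed. Over 11 pairs these counts do not show whether starts or ends were closer. On the rest of the chromosome, 27.6% of starts and 27.5% of ends agreed at this tolerance. In 5 pairs the sample 2 region lay within the sample 1 region, and in 3 pairs, the second, the third and the tenth, it was the reverse. Elsewhere on the chromosome these arrangements made up 27.3% and 21.2% of pairs. In the third, the fifth and the tenth the sample 2 region began 63, 32 and 61 bp before the sample 1 region. The sample 2 region was the narrower one in 7 of 11 pairs, and the median of the sample 2 width minus the sample 1 width was -12 bp. On the rest of the chromosome it was the narrower one in 58.9% of pairs, with a median difference of -10 bp, so both values were close to those at Tcf4.

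**Figure D4:**
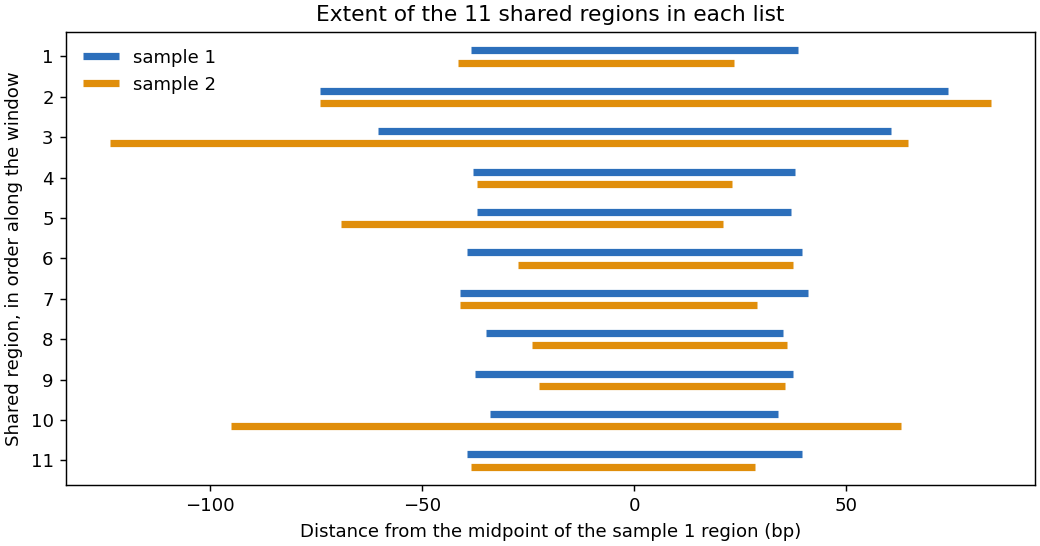
Extent of each of the 11 shared regions in sample 1 (blue) and sample 2 (orange), in their order along the window from top to bottom, as distance from the midpoint of the sample 1 region (x axis, bp). The second and the third region are long in both lists, and the third and the tenth reach furthest to the left in sample 2.

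By rank within each list the Tcf4 regions ran from low to high. Their scores reached only a small part of the score range, 70.03 to 3100 in sample 1 and 50.0 to 3100 in sample 2. Whether the identical top value is a limit set by the caller is not stated. The median percentile was 55.04 in sample 1 (quartiles 36.7 and 75.4) and 60.2 in sample 2 (39.8 and 85.7), against 50.0 and 50.7 on the rest of the chromosome. The highest Tcf4 scores, 336.71 in sample 1 and 206.26 in sample 2, were below the highest scores elsewhere on the chromosome, 635.39 and 447.43. In sample 2, shared Tcf4 regions had a median percentile of 76.8 and those without a partner one of 55.9. The same order held on the rest of the chromosome, at 63.6 and 37.95. Across the 11 pairs, the scores of the lists had a Spearman's rho of 0.49 and a Pearson's r of 0.44, against 0.14 and 0.21 over the 728 pairs elsewhere. These are correlations across regions of the same libraries and are given as a description. No interval was computed for the 11 pairs, so closer agreement at Tcf4 is not read from them.

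At the edges of the window the rule left a margin without regions. In sample 1, the first region inside lay 164.1 kb from the window start and the last one before the start 201.8 kb from it, with a score of 74.15. At the other edge the last region inside lay 109.9 kb from the window end and the next one, with a score of 308.22, 136.3 kb beyond it. In sample 2, the regions just inside lay 25.1 and 67.1 kb from the edges and scored 51.88 and 59.28. Those just outside lay 201.5 and 115.7 kb away and scored 71.29 and 111.43.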

How the data were processed

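ChIP-seq region lists of 2 replicates of 1 group were used. Per the labels' protocols, each immunoprecipitation used 24 µg of chromatin, and reads of 2 lanes with 50 cycles were combined after alignment. Bowtie 0.12.7, bedtools 2.11.2 and mm9 are named in the submitters' processing notes. Region names begin with MACS, a peak caller. The caller's version and thresholds, and whether a control was used, are not stated in the labels. The authors' score deposited for each region has no stated unit. It was ranked within each list and used only to describe or filter regions.

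With Python 3.11.15, numpy 2.4.6, pandas 2.3.3 and scipy 1.17.1, regions were assigned to the window by midpoint, called shared at an overlap of 1 bp or more, and merged. Percentiles are average ranks over a whole list. Coordinates count from 1. Tested on simulated data, a moved copy of part of the sample 1 list, the overlap step found 10000 of 10000 planted regions. Copies were moved by up to 20 bp and sample 1 regions are at least 67 bp wide, so each had to overlap its source. The result checks only that the step runs as written and says nothing about overlap by chance. Named were all shared regions, the 3 highest-scoring single-list regions of each list, extreme spacings and the fuller tiles. E-protein, Id and partner genes could not be placed without an mm9 annotation and were left out. The members, lists and boundaries were chosen with earlier results of these data known.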

Additional observations from a re-analysis of the deposited data

How the results depend on the processing

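When each list was cut to its upper 50% by score, 5 shared regions remained in the window, in part by construction, since fewer regions enter. The other 49 of the 50 alternative values stayed within the interval of the reported value or within 1.5 times the count, but some of these intervals are wide. In sample 1 no region lay within 50 kb of a window edge, so shortening the window or assigning by overlap could not change its values. A cut to the upper 50% raises the median percentile by construction. The median spacing in sample 1 moved from 7.73 to 22.3 kb in the upper 50% by score, inside an interval of 2.13 to 36.7 kb. The alternatives covered reciprocal overlap of at least 50%, a window shortened by 50 kb at each edge, assignment by any overlap, shared regions only and, chosen after seeing the data, a sample 2 list limited to the lowest sample 1 score or to the length of sample 1. With either limit on sample 2, 9 shared regions were left in the window. With reciprocal overlap there were 10, and the stretch kept 9. The share of chromosome 18 regions in the window was 1.39% without replicate 1 and 1.44% without replicate 2. These are the shares of all regions of the remaining list, since a single list has no shared regions. They were held against the interval for shared regions, which is another measure, so they do not test its stability. The wide intervals over 13 and 20 regions make the comparisons across alternatives insensitive. No paired analysis was possible because there is 1 group and no comparison between groups.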
